A study of Homo sapiens with 6 samples.

Results

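The tumour suppressor p53 (gene Trp53), its main antagonist Mdm2 and 8 genes that p53 is known to switch on were examined in MOC2, a line of oral squamous carcinoma cells from mouse. The 10 genes are Trp53, Mdm2, Ccng1, Phlda3, Aen, Sesn2, Trp53inp1, Zmat3, Bax and Gdf15. They were picked by name as textbook members of the pathway and make up 10 of the 21872 gene rows measured; 9 of them had enough counts to test. RNA from whole cultures was sequenced in 3 control libraries, from cells given control CRISPR/Cas9 lentivirus, and in 3 knockout libraries, from cells given lentivirus with CRISPR/Cas9 against the gene for HuR. Both groups thus carry the lentiviral treatment and the same DMEM medium with serum. The protocol speaks of 1 isolated clone, and nothing says that the knockout libraries stem from separate clones, although the design text calls the samples biological triplicates. The p-values below measure the spread among these libraries, and technical spread may make up some of it. The knockout libraries are named after their genotype label; their titles abbreviate the group as KD.

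p53 is a transcription factor that is kept scarce because the ubiquitin ligase Mdm2 marks it for destruction. DNA damage and other stress free p53 from Mdm2, and p53 then raises the transcription of genes that stop the cell cycle, repair DNA, start apoptosis or change metabolism. Mdm2 is itself a target, which closes a feedback loop, and p53 activity is controlled largely at the protein level. HuR (gene Elavl1) is an RNA-binding protein whose reported ligands include the mRNAs of Trp53, Mdm2 and Cdkn1a. Squamous cell carcinomas of the head and neck often carry p53 mutations; whether the MOC2 cells used here have working p53 was not examined in these data.

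Library totals lay between 16158516 and 21294330 counts. Levels are given in CPM, which is counts scaled to a common library total after TMM normalisation, and are not compared between genes because gene lengths were not used. Control libraries correlated with each other at 0.987 to 0.992 (Pearson's r of log2 CPM across genes, which are not independent replicates) and knockout libraries at 0.924 to 0.978, with knockout library 3 the farthest from the others. Elavl1 mRNA, the target of the editing, had a log2 fold change of -0.04 between the groups (SE 0.111), so its mRNA level does not check the labels, and "knockout" below means the libraries so labelled. Epithelial keratins such as Krt8 were abundant in both groups. The 8 epithelial markers listed summed to between 10898 and 13372 CPM in control and between 5791 and 8487 CPM in knockout. There 5 of 7 tested had fallen, beside 15.4% of all genes. Of 8 fibroblast markers, 4 were tested and 3 rose, beside 20.3% of all genes. The list summed to at most 8.42 CPM in control and to 408 to 430 CPM in knockout. Nearly all of the knockout sum was Col3a1, Col1a1 and Pdgfrb. Pdgfrb had 1, 1 and 0 counts in control and entered the test through its knockout counts. Pdgfra did not pass, Col1a2, Dcn and Postn were at most 0.796 CPM in any library, and Lum was at 0 everywhere. The part of this shift in the values below was not tested. Of 6 immune markers 4 were detected, and their sum, in control nearly all Ly6g, was 7.22 to 16.1 CPM in control and 0.049 to 0.245 CPM in knockout; Ptprc, common to leukocytes, was at most 0.187 CPM, and Itgam was at 0. The 4 endothelial markers summed to at most 1.04 CPM.

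Phlda3 and Trp53inp1 rose in knockout, Aen fell, and the other 6 genes tested did not pass. Trp53 and Mdm2 themselves were among those that did not pass. Thus 3 of 9 changed (adjusted p under 0.05 by edgeR's quasi-likelihood test, adjusted over all 12293 genes tested), a share close to the 35.7% of all genes that did so; 2 rose, where 20.3% of all genes did, and 1 fell, where 15.4% did. The median log2 fold change of the 9 was 0.10, beside 0.03 over all genes. The CPM of the groups did not overlap for 4 of the 9, Phlda3, Trp53inp1, Aen and Zmat3, beside 57.6% of all genes. Without knockout library 3, Bax passed as well on the higher side and Zmat3 on the lower side, making 3 higher and 2 lower, while 48.3% of all genes then changed.

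**Figure D1:**
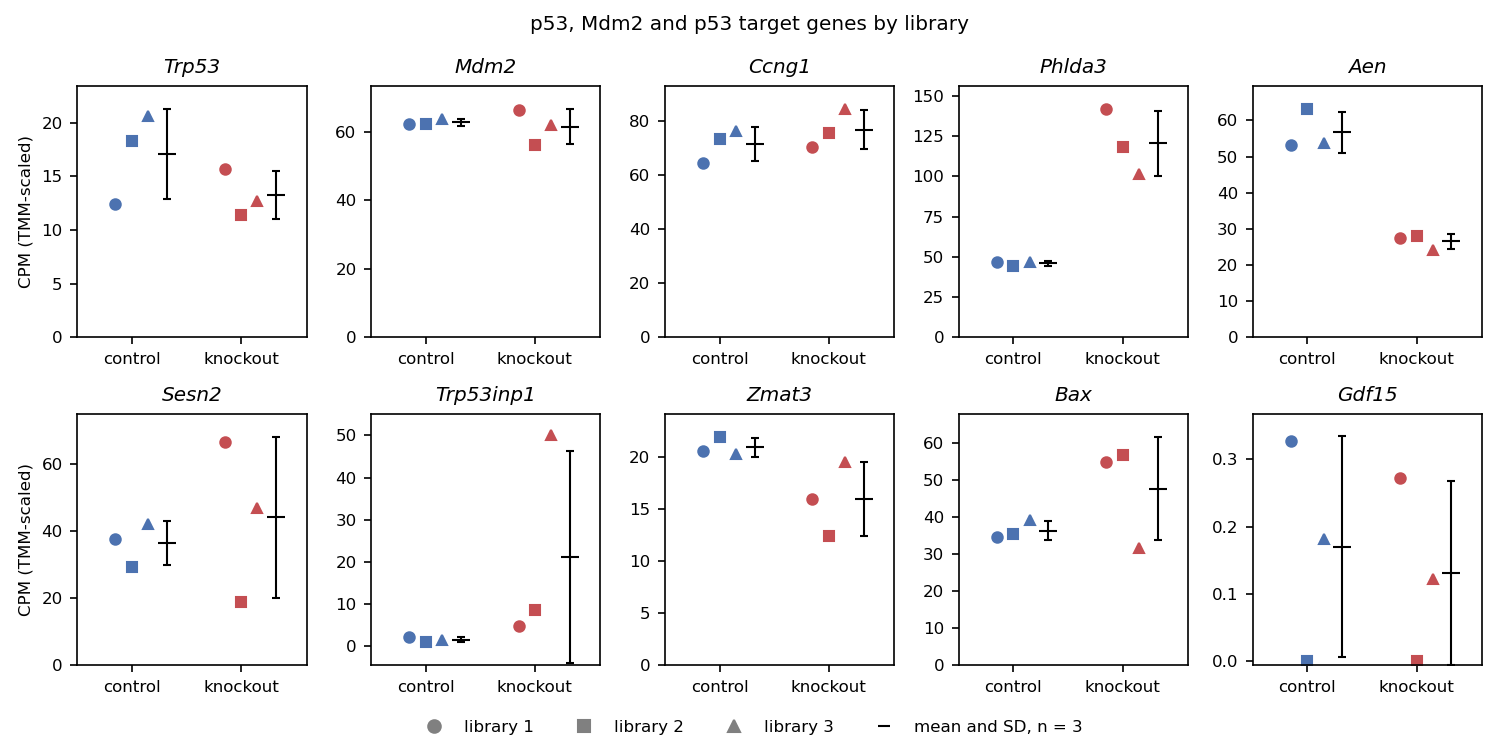
CPM (vertical axis, linear, a separate scale per gene) of the 10 genes in each of the 3 control and 3 knockout libraries, with the mean and SD of each group beside the points. Phlda3 stood higher and Aen lower in every knockout library, whereas the knockout mean of Trp53inp1 was carried by library 3 at 50.2 CPM.

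Trp53 mRNA measured 12.4, 18.3 and 20.6 CPM in the controls, in the order of their numbers, versus 15.7, 11.4 and 12.7 CPM in the knockouts. The groups overlapped, since control library 1 lay below 2 of the knockout libraries. The mean was 17.1 ± 4.2 CPM in control and 13.3 ± 2.21 CPM in knockout (SD, n = 3 each), with a log2 fold change of -0.37 (95% interval -0.94 to 0.21, edgeR quasi-likelihood, adjusted p = 0.278). Trp53 lies head to head with Wrap53 on the opposite strand, and whether the counting used strand is not given in the sources used here.

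Mdm2, the ligase that both restrains p53 and responds to it, was steadier. Control libraries were at 62.2, 62.2 and 63.9 CPM and knockout libraries at 66.4, 56.0 and 62.1 CPM. The control values lay inside the knockout range, with a log2 fold change of -0.03 (95% interval -0.30 to 0.24, edgeR quasi-likelihood, adjusted p = 0.862). Neither a small rise nor a small fall can be told from no change within that interval.

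Phlda3, whose product blocks the survival kinase Akt at the membrane, rose 2.62-fold. It measured 47.0, 44.0 and 46.8 CPM across the controls versus 142, 118 and 101 CPM across the knockouts. All 3 knockout libraries were above all controls by more than the spread within either group. The means were 45.9 ± 1.68 and 120.5 ± 20.3 CPM (SD, n = 3 each), with a log2 fold change of 1.39 (SE 0.15, edgeR quasi-likelihood, adjusted p = 0.0012). Leaving out any 1 library kept the call, with log2 fold changes between 1.26 and 1.5.

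Aen, an exonuclease that p53 induces during apoptosis, moved the other way and fell to 46.8% of the control level. Control libraries were at 53.2, 63.2 and 53.7 CPM and knockout libraries at 27.4, 28.0 and 24.1 CPM. The groups were wide apart, and the knockout libraries differed by no more than 1.16-fold among themselves. The log2 fold change was -1.10 (SE 0.137, edgeR quasi-likelihood, adjusted p = 0.00197), and it stayed between -1.16 and -1.03 when any 1 library was left out. Phlda3 and Aen, both direct targets, thus moved in opposite directions.

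Trp53inp1, a nuclear and autophagy-related protein that promotes p53-dependent cell death, was nearly silent in control and rose in knockout. It gave 1.97, 0.835 and 1.40 CPM for control and 4.69, 8.38 and 50.2 CPM for knockout, by library. The groups did not overlap, but knockout library 3 was 10.7 times as high as knockout library 1. The log2 fold change was 3.90 (SE 0.99, 95% interval 1.53 to 6.27), a 14.9-fold rise (edgeR quasi-likelihood, adjusted p = 0.024). Without knockout library 3 the rise was 4.65-fold (adjusted p = 0.00296). Dropping control library 1, 2 or 3 ended the call (edgeR, adjusted p = 0.0703, 0.0955 and 0.0897), as did limma-voom (0.0987).

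Bax, a BCL2-family protein that opens the outer mitochondrial membrane, was split by library. Control libraries were at 34.5, 35.3 and 39.2 CPM, and knockout libraries at 54.9, 56.8 and 31.5 CPM. Knockout libraries 1 and 2 lay above every control and knockout library 3 below every control. Over all libraries the log2 fold change was 0.39 (SE 0.237, edgeR quasi-likelihood, adjusted p = 0.236), and without knockout library 3 it was 0.62 (adjusted p = 0.002).

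Zmat3, an RNA-binding zinc finger protein and direct p53 target, did not pass over all libraries. It had control values of 20.5, 22.0 and 20.2 CPM and knockout values of 15.9, 12.4 and 19.5 CPM. Every knockout library lay below every control, with knockout library 3 only just below. The log2 fold change was -0.39 (SE 0.197, edgeR quasi-likelihood, adjusted p = 0.163); without knockout library 3 it was -0.56 and passed (adjusted p = 0.0165).

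**Figure D2:**
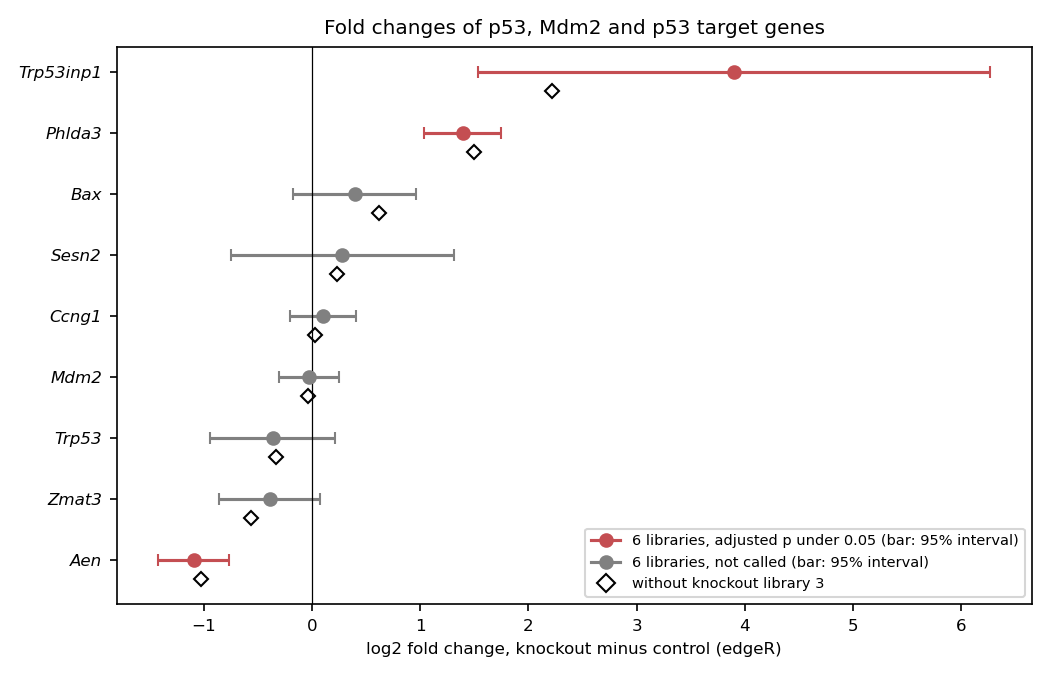
Log2 fold changes of the 9 genes tested, knockout minus control (horizontal axis), with 95% intervals from edgeR over all 6 libraries; diamonds give the value without knockout library 3. The intervals of Trp53inp1, Phlda3 and Aen exclude 0, and leaving out knockout library 3 moves Trp53inp1 from 3.90 to 2.22.

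Ccng1, the atypical cyclin G1 that recruits a phosphatase to Mdm2, did not pass. It reached 64.4, 73.3 and 76.3 CPM in the 3 controls, against 70.2, 75.4 and 84.3 CPM in the knockout libraries, and the groups overlapped. Its log2 fold change was 0.10 (95% interval -0.20 to 0.41, edgeR quasi-likelihood, adjusted p = 0.557).

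Sesn2, a sestrin that restrains mTORC1 and is induced both by p53 and by the stress factor ATF4, spread widely between knockout libraries. It measured 37.6, 29.3 and 42.2 CPM across the controls versus 66.7, 18.8 and 47.0 CPM across the knockouts. Knockout libraries 1 and 3 lay above every control and knockout library 2 below every control, a 3.54-fold range within the group. The log2 fold change was 0.28 (SE 0.43, 95% interval -0.75 to 1.31, edgeR quasi-likelihood, adjusted p = 0.64), and its sign turned to -0.15 without knockout library 1.

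Gdf15, a secreted stress cytokine that p53 and ATF4 both induce, was hardly detected. It had 7, 0 and 3 counts in the control libraries and 5, 0 and 2 counts in the knockout libraries, too few to test. A count of 0 allows up to 3 counts, or 0.147 CPM, in control library 2 and in knockout library 2, counting error only. No difference was detectable at this depth.

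The knockout libraries did not share 1 order over the 9 genes tested. In knockout library 1, 5 genes lay above all controls and 2 below. In knockout library 2, 3 lay above and 5 below, and in knockout library 3, 4 lay above and 4 below. The shares of all genes outside the control range in each library were not counted, so these counts are a description only. The coefficient of variation was larger in knockout than in control for 7 of the 9 genes, beside 81.0% of all genes tested. Its median over the 9 was 8.73% in control and 16.9% in knockout, beside 9.01% and 22.8% over all genes. Mdm2 was the tightest in control at 1.54%, and Trp53inp1 the widest of the 9 in both groups, at 40.4% and 119.8%.

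Genes whose log2 CPM followed Trp53 or Mdm2 most closely over the 6 libraries were listed as a description, with no test. For Trp53 they were Mb21d2, Taf3 and Zc3h13 (Pearson's r = 0.97, 0.96 and 0.96), none of which passed the test between the groups. For Mdm2 they were Mei4, Plk3 and Atf4 (r = 0.99, 0.98 and 0.97). All points share the 6 libraries and their scaling, and Mdm2 itself ranged only from 56.0 to 66.4 CPM. Atf4, the transcription factor of the integrated stress response, gave 477, 477 and 504 CPM for control and 588, 260.4 and 402 CPM for knockout, by library. Sesn2 correlated with Mdm2 at 0.92, and at 0.98 after the group means were removed. In Mdm2, Sesn2, Plk3 and Atf4 alike, knockout library 1 was the highest of the 6 and knockout library 2 the lowest.

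**Figure D3:**
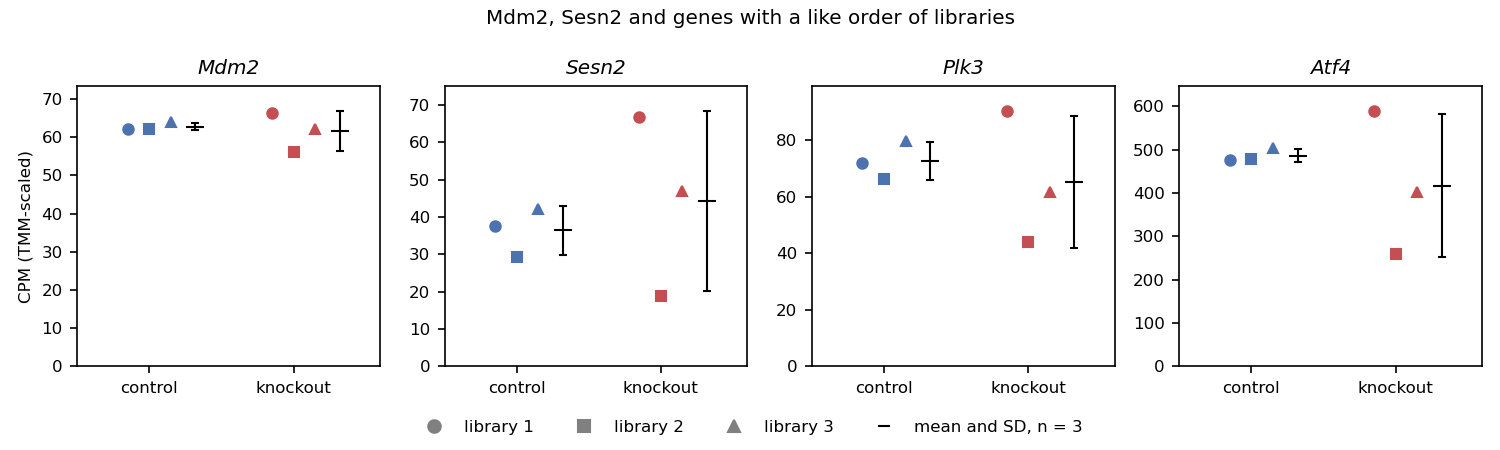
CPM (vertical axis, linear) of Mdm2, Sesn2, Plk3 and Atf4 in each control and knockout library, with group means and SD. Knockout library 1 was the highest and knockout library 2 the lowest in all 4 panels, with Mdm2 spanning 56.0 to 66.4 CPM and Atf4 260.4 to 588 CPM. Sesn2, Plk3 and Atf4 were all picked for following Mdm2, so their order follows from that choice.

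Of 10 other genes of the ATF4 response, 6 were lowest of the knockout libraries in library 2, and 3 of these were also highest in library 1. The share of all genes with these orders was not counted, so the counts are a description only. Trib3, a pseudokinase induced by ATF4, varied from 67.5 to 79.9 CPM among controls, while the knockout libraries had 161, 18.3 and 106 CPM. With Atf4, 11 were tested (18.2% changed, beside 35.7% of all genes). Of these 2 rose, 9 did not pass and 0 fell by edgeR, DESeq2 or limma-voom. At an unadjusted p under 0.05, 0 fell too, where 2514 of all 12293 genes did. Without knockout library 2, 4 rose, where 2091 of all 12444 genes tested did. Without knockout library 1, 1 fell, where 1888 of all 12525 genes tested did. The mTORC1 inhibitor Ddit4, also a p53 target, rose 5.45-fold, from 45.7 to 75.2 CPM in control to 245 to 415 CPM in knockout (edgeR quasi-likelihood, adjusted p = 0.00163). The transcription factor Cebpb rose 3.37-fold (edgeR quasi-likelihood, adjusted p = 0.00466). The median of the list was 0.05.

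Among upstream regulators and relatives of p53, the share that changed was that of all genes when Trp63 was counted. The call of Trp63 is no support, as given below. Of 15 listed, 14 were tested, 3 rose, 2 fell and 9 did not pass (35.7% changed, beside 35.7% of all genes), with a median log2 fold change of -0.15. Ppm1d, the WIP1 phosphatase that is induced by p53 and shuts p53 signalling off, rose 3.53-fold, from 23.2, 21.5 and 21.9 CPM in control to 67.3, 72.5 and 95.7 CPM in knockout (edgeR quasi-likelihood, adjusted p = 0.00073). Cdkn2a, whose row joins the Arf inhibitor of Mdm2 and the CDK inhibitor Ink4a, rose 1.98-fold, from 227, 192 and 196 to 414, 435 and 369 CPM (edgeR quasi-likelihood, adjusted p = 0.00261). In both, every knockout library exceeded every control by more than the spread within groups.

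Usp7, a deubiquitinase of Mdm2 and p53, fell 1.46-fold (edgeR quasi-likelihood, adjusted p = 0.0158), a call lost without control library 2 or 3 (0.0666 and 0.0705). The damage kinase Atr fell 2.01-fold, from 37.3, 43.2 and 43.7 CPM to 29.3, 19.9 and 12.5 CPM (edgeR quasi-likelihood, adjusted p = 0.0406); the call was lost without control library 1, 2 or 3 or knockout library 2, where adjusted p lay between 0.0869 and 0.114. Mdm4, the partner of Mdm2 that masks the p53 activation domain, had control values of 41.8, 41.6 and 56.3 CPM and knockout values of 51.1, 33.4 and 51.4 CPM (edgeR quasi-likelihood, adjusted p = 0.904). The p53 relative Trp63, master regulator of squamous epithelium, was at 0 in every control library and at 1.53, 4.51 and 15.8 CPM in knockout after its row was divided by 11. It is 1 of the 3 counted as rising, but it entered the test only through its knockout counts, so that call is no support; 2 rose without the divided rows. Only 1 count remained for Trp73 after the same division, in knockout library 2, and it was not tested.

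**Figure D4:**
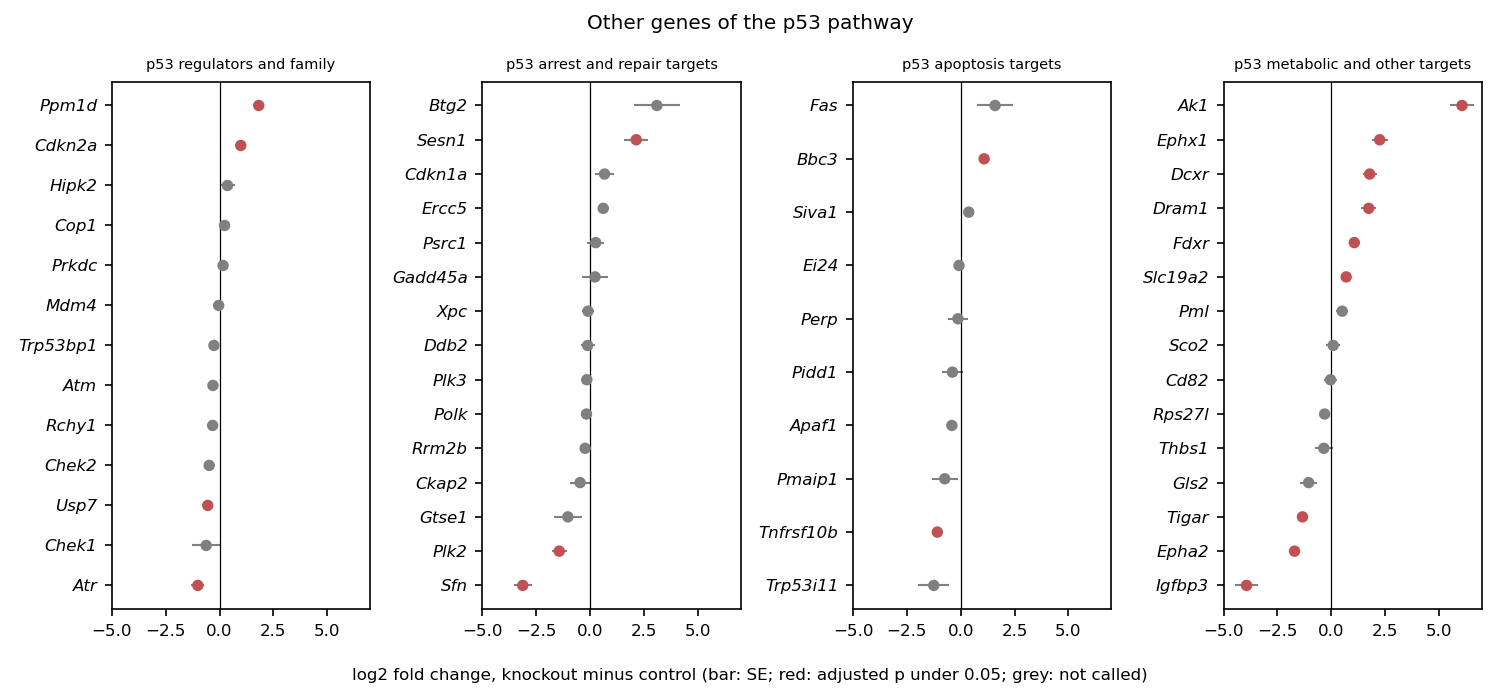
Log2 fold changes, knockout minus control, of the other pathway genes tested, by role, with SE; red points passed the test. Trp63, at 0 in all controls, and 1 gene of the metabolic and other targets are not drawn. Points lie on both sides of 0 in each panel, from Igfbp3 at -3.94 to Ak1 at 6.07. Ak1 had 10, 3 and 12 counts in control and entered the test through its knockout counts.

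Outside the 10 genes, 42 further p53 targets were listed by role, and 41 were tested. Of these 9 rose, 6 fell and 26 did not pass (36.6% changed, beside 35.7% of all genes), with a median log2 fold change of -0.10. Together with the targets among the 10, 11 of 49 rose and 7 fell. These counts leave out Ppm1d and Ddit4, which p53 also induces and which rose. They were listed with the regulators and the ATF4 genes. The partners of Bax described below, of which 2 rose and 3 fell, are left out as well. Which other genes of these 3 lists p53 induces was not examined, so the omissions need not all be rises.

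Of 15 targets that arrest the cycle or act in repair, 1 rose and 2 fell (20% changed, beside 35.7% of all genes), with a median of -0.11. Leaving out knockout library 1, 2 or 3 gave 2, 3 and 2 that rose, beside 2527 of 12525, 2091 of 12444 and 3178 of 12471 genes tested. Without library 3 there were 4 that fell, beside 2843 of 12471. Without control library 1, 2 or 3, 0 rose by edgeR, beside 1511 of 12478, 1166 of 12555 and 1228 of 12562. Under limma-voom 0 rose too, beside 2288 of 12293. Over all libraries, 2 rose at an unadjusted p under 0.05, beside 3188 of 12293, and DESeq2 called 1 as rising, beside 2832 of 12261. Cdkn1a, the CDK inhibitor p21 and best-known p53 target, reached 70.7, 36.3 and 49.8 CPM in the 3 controls, against 89.3, 37.2 and 123 CPM in the knockout libraries, with overlapping groups (log2 fold change 0.67, SE 0.448, edgeR quasi-likelihood, adjusted p = 0.284). Sesn1, the sestrin most tied to p53, rose 4.41-fold, from 9.88, 10.6 and 8.87 CPM to 16.3, 31.3 and 81.9 CPM (edgeR quasi-likelihood, adjusted p = 0.0276). Without knockout library 3 its rise was 2.44-fold (adjusted p = 0.00719), and without control library 1, 2 or 3 the call was lost (0.0908, 0.0927 and 0.102).

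Btg2, an antiproliferative gene, measured 5.05, 3.63 and 3.77 CPM across the controls versus 8.06, 6.91 and 92.3 CPM across the knockouts. It did not pass (log2 fold change 3.10, SE 1.07, edgeR quasi-likelihood, adjusted p = 0.0629). It passed without knockout library 1, 2 or 3 (adjusted p = 0.0368, 0.0387 and 0.0223), with a log2 fold change of 0.85 in the last case. Without control library 1, 2 or 3 it did not pass (edgeR quasi-likelihood, adjusted p = 0.148, 0.18 and 0.174). Neither limma-voom (adjusted p = 0.251) nor the edgeR replicate block (0.162) called it. Sfn, the epithelial 14-3-3 sigma that holds cells in G2, fell 8.75-fold, from 92.1, 98.7 and 91.2 CPM to 18.4, 7.69 and 6.12 CPM (edgeR quasi-likelihood, adjusted p = 0.00257; 13.6-fold without knockout library 1). The kinase Plk2 fell 2.71-fold (edgeR quasi-likelihood, adjusted p = 0.0195), a call lost without control library 1 or 2 (0.0684 and 0.0577).

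Of 10 tested targets with roles in apoptosis, 1 rose and 1 fell (20% changed, beside 35.7% of all genes), with a median of -0.26. Without knockout library 3, 2 rose and 4 fell, while 48.3% of all genes changed. Bbc3, which encodes the BH3-only protein PUMA, rose 2.13-fold, from 13.4, 13.4 and 16.8 CPM to 27.8, 24.0 and 41.0 CPM (edgeR quasi-likelihood, adjusted p = 0.0142). Its groups did not overlap, and the call was lost without control library 1 or 2 (0.0618 and 0.0716). The death receptor Tnfrsf10b fell, with 49.0, 44.4 and 44.9 CPM in control and 23.2, 23.5 and 18.4 CPM in knockout (edgeR quasi-likelihood, adjusted p = 0.00252).

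The other BH3-only target and the other death receptor did not pass. Pmaip1, which encodes NOXA, gave 66.5, 59.0 and 63.9 CPM for control and 30.5, 10.9 and 72.1 CPM for knockout, by library; knockout library 3 alone lay above the controls, and without it Pmaip1 passed on the lower side (log2 fold change -1.61, edgeR quasi-likelihood, adjusted p = 0.0463). Fas was under 1 CPM in every library except knockout library 3, at 2.94 CPM (edgeR quasi-likelihood, adjusted p = 0.189).

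Among 6 proteins that Bax works with or against, 2 rose and 3 fell, where 20.3% and 15.4% of all genes did: the survival genes Bcl2l1 and Mcl1 rose 1.82-fold and 1.36-fold, while the survival gene Bcl2 fell 2.09-fold, and the death effectors Bid and Bak1 fell 1.37-fold and 1.35-fold (edgeR quasi-likelihood, adjusted p = 0.0191, 0.0463, 0.00607, 0.0427 and 0.0392). Bcl2 alone kept its call without any 1 control library; without each in turn, 0 rose and 1 fell, while 18.4% to 21.5% of all genes changed. Without knockout library 3, 4 fell, where 2843 of all 12471 genes tested did. Without knockout library 1, Mcl1 and Bak1 lost their calls (adjusted p = 0.0822 and 0.0615), and without knockout library 2, Bid and Bak1 did (0.0947 and 0.0556).

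The largest fold changes among the p53 targets tested, Ak1 upward and Igfbp3 downward, were in the mixed list of metabolic and other targets. Of 16 tested, 7 rose and 3 fell (62.5% changed, beside 35.7% of all genes), with a median of 0.30. Ak1, an adenylate kinase, rose 67.3-fold, from 0.468, 0.147 and 0.729 CPM to 22.9, 42.4 and 24.3 CPM (edgeR quasi-likelihood, adjusted p = 0.000723). The control libraries held only 10, 3 and 12 counts of Ak1. It entered the test through its knockout counts, so that call is no support. It is 1 of the 7 counted as rising and is also in the counts over all p53 targets. The epoxide hydrolase Ephx1 rose 4.75-fold (edgeR quasi-likelihood, adjusted p = 0.0057).

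The 3 genes that fell had groups that did not overlap, like 57.6% of all genes tested, and the rule for naming genes requires this. Igfbp3, a secreted binding protein of insulin-like growth factors, fell 15.3-fold, from 582, 656 and 521 CPM to 70.0, 25.2 and 19.7 CPM (edgeR quasi-likelihood, adjusted p = 0.0024; 26.1-fold without knockout library 1). The ephrin receptor Epha2 fell 3.27-fold and Tigar, a fructose bisphosphatase that slows glycolysis, 2.53-fold (edgeR quasi-likelihood, adjusted p = 0.00419 and 0.00247). Without control library 2 or 3, 5 of the 16 rose, where 1166 of 12555 and 1228 of 12562 genes tested did. Without knockout library 3, 5 fell, where 2843 of 12471 genes tested did.

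Of the 49 p53 targets tested, 17 were at their highest of the 6 libraries in knockout library 3 and 15 at their lowest (34.7% and 30.6%), beside 33.7% and 31.8% of all genes. Trp53inp1, Sesn1, Btg2 and Cdkn1a were among the highest there, and Bax, Aen, Tigar and Sfn among the lowest. Knockout library 3 had the lowest level of every one of 13 cell cycle genes that p53 is known to lower through p21 and the DREAM repressor complex. The 13 genes summed to 2962, 2919 and 2975 CPM in control and to 2413, 2170 and 361 CPM in knockout. The next lowest library was 2.95 to 13.7 times as high as knockout library 3 for each gene. The mitotic kinase Plk1 spanned 204 to 218 CPM among controls and measured 174, 159 and 26.2 CPM in the knockout libraries. The proliferation marker Mki67 spanned 341 to 438 CPM among controls and measured 390, 297 and 48.3 CPM in the knockout libraries. Phlda3 and Aen, by contrast, differed by at most 1.4-fold and 1.16-fold between the knockout libraries. In RNA from whole cultures, fewer dividing cells and less of these mRNAs per cell cannot be told apart, and the part of this difference in the values of the p53 targets was not tested.

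Between the groups 0 of the 13 cell cycle genes passed by edgeR's quasi-likelihood test, beside 35.7% of all genes, with a median of -0.81. At an unadjusted p under 0.05 there were 0, beside 5702 of all 12293 genes. DESeq2 called 1 and limma-voom 0, beside 43.1% and 34.9% of all genes. Without knockout library 3, 7 of the 13 fell, where 2843 of all 12471 genes tested did, and the median was -0.34.

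**Figure D5:**
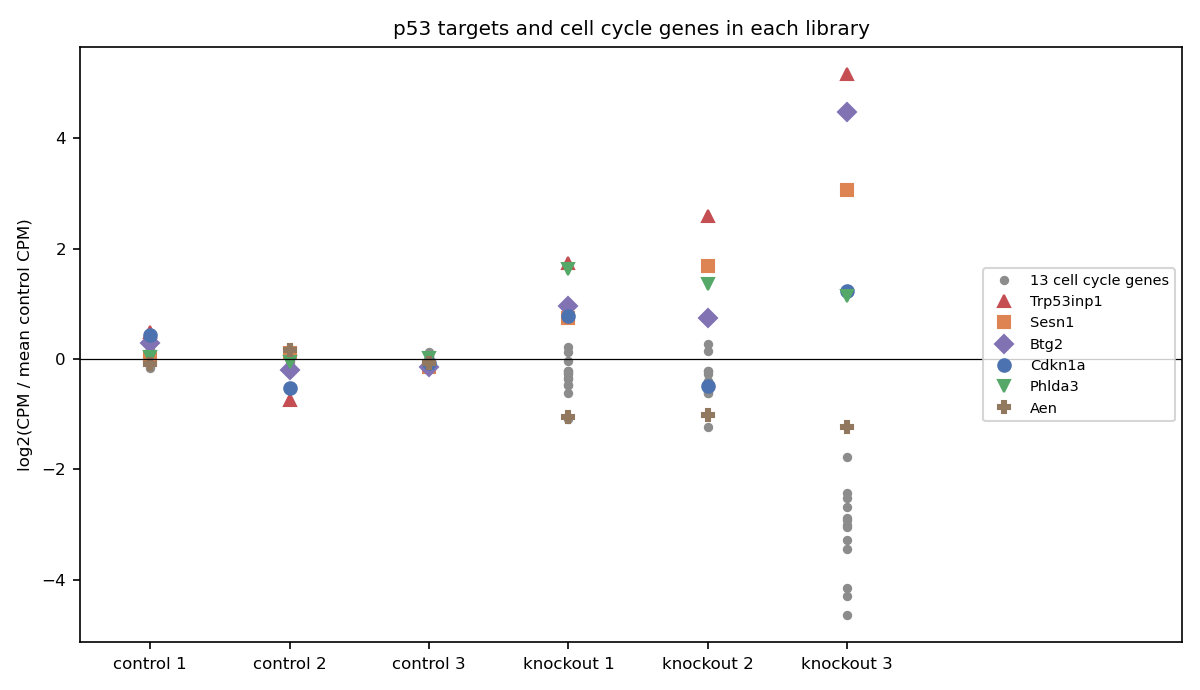
Log2 of CPM over the mean control CPM (vertical axis) in each library for 13 cell cycle genes (grey points) and 6 p53 targets (coloured symbols, chosen after their values were seen). In knockout library 3 all cell cycle genes lie at their lowest while Trp53inp1, Btg2 and Sesn1 lie at their highest; Phlda3 and Aen are alike in the 3 knockout libraries.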

How the data were processed

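The authors deposited 1 table of whole-number counts per mouse gene symbol for 6 libraries; per the submitters' processing notes, STAR 2.7.1a, featureCounts and hg38 are named, with neither roles nor order stated. The human species label and hg38 conflict with the mouse line and mouse symbols, so the genome and annotation behind the counts are unclear. Annotation and strand setting: not given in the sources used here. All values in the 1704 rows with 0 in control library 1 but counts elsewhere were multiples of 11; these rows were divided by 11 before testing, and the values as deposited were an alternative. None of the 10 genes was in such a row; Trp63 and Trp73 were. R 4.3.3 and edgeR 4.0.16 fitted the counts (TMM after filterByExpr, robust dispersions, quasi-likelihood test, Benjamini-Hochberg adjustment over 12293 genes, threshold 0.05); standard errors came from the fold change and F statistic. DESeq2 1.42.0, limma-voom (limma 3.58.1), other scalings, no filter, each library left out and a replicate block were alternatives. The procedure was tested on simulated counts. Pairs of libraries within a group all differed by more than sampling noise. The 10 genes and all lists were chosen with earlier results of these data known, so no list was tested as a set. Beyond the 10 genes, the text names Cdkn1a, Mdm4, Btg2, Bbc3, Pmaip1 and Fas, up to 3 rising and 3 falling genes per list (those past the threshold, without overlap, mean of at least 1 CPM, largest fold changes), and the 3 genes closest to Trp53 and to Mdm2. 1 rising gene that this rule names is not reported here, though list counts include it. Chosen after their values were seen were Trib3, Plk1, Mki67, Trp73 and the pair of Mdm2 and Sesn2. Promoter and protein sequences of mouse were not used here.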

Additional observations from a re-analysis of the deposited data

How the results depend on the processing

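Phlda3 and Aen passed under all 14 alternatives, and Trp53, Mdm2, Ccng1 and Sesn2 under none. The number of the 10 genes that rose was 2, but 1 under limma-voom and 1 to 3 when each library was left out in turn; the number that fell was 1, and 1 to 2 on leaving out libraries. Over all genes, leaving out a library gave 2312 to 6021 changed genes. It fell to 2685, 2312 and 2358 without control library 1, 2 and 3 and was 6021 without knockout library 3. The direction turned for Mdm2 (0.036) and Mdm4 (0.14) without knockout library 2, for Mdm4 without control library 3 (0.09) and for Sesn2 without knockout library 1 (-0.15); none of these passed in either direction. Leaving out each library gave log2 fold changes of -0.088 to 0.036 for Mdm2, -0.15 to 0.65 for Sesn2 and -0.15 to 0.14 for Mdm4. The other scalings, DESeq2, no filter, undivided values and removal of the divided rows left the 2 rising and 1 falling genes in number as they were. Deviations from the group means of same-numbered control and knockout libraries correlated at -0.05, 0.26 and 0.02. The 0.26, for number 2, was the highest of all pairs, while control library 1 correlated best with knockout library 3 (0.19). With 3 libraries a group, these values cannot decide whether same-numbered libraries were paired. With the replicate block, 3591 genes changed, 2 of the 10 rose and 1 fell. The block ended the calls of Atr, Usp7, Sesn1, Mcl1, Bid and Bak1, and Mcl1 also lost its call with DESeq2 size factors (adjusted p = 0.0568) and with no filter (0.0725). Depth limits Gdf15 and, in control, Trp53inp1 and Ak1. With 3 libraries a group, large changes with a wide spread also went uncalled, such as Btg2 at 8.57-fold (adjusted p = 0.0629).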
